A study of Mus musculus with 40 samples.

Results

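The genes described here are 10 activity-induced immediate early genes, Fos, Fosb, Junb, Egr1, Egr2, Egr3, Egr4, Arc, Nr4a1 and Npas4, in mouse gliomas that arose after loss or mutation of p53, in glioma cell lines and in normal cortex. They were chosen by name, and their probe sets were taken from a table of 45101 probe sets. The 10 genes had 12 probe sets, of which the brightest one represented each gene among 18193 genes. The study compared tumors, tumor-derived lines and normal forebrain, with 1 Affymetrix array for each of 40 samples. The 11 p53nullCKO gliomas came from hGFAP-cre+;p53floxE2-10/floxE2-10 mice, in which Cre removes the p53 coding region from both alleles. The 11 p53R172HCKO gliomas and the 11 end-stage glioma lines had the genotype hGFAP-cre+;p53LSLR172H/floxE2-10, which pairs the R172H missense allele with the deleted allele, and 2 further lines of this genotype came from early-stage biopsies. Of the 5 control cortices, 3 came from hGFAP-cre+;p53floxE2-10/+ mice, in which Cre and 1 deleted allele are present, and 2 from hGFAP-cre-;p53floxE5-6/floxE5-6 mice, which lack Cre.

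The Cre driver is the human GFAP promoter, which is active in neural progenitors as well as astrocytes, so p53 is altered in many neural cells of the Cre-positive mice. The gliomas were bulk tumor tissue, and normal tissue had been seen by histology in 1 p53R172HCKO tumor, which the labels do not tie to an array. The lines grew as spheres in neural stem cell medium with bFGF and EGF. Ages are not given in the labels. By the study's methods each p53R172HCKO tumor had its own line, so these tumors and lines came from the same animals, but the labels do not say which line belongs to which tumor. The fit treated them as separate samples, and each p-value rests on the spread over arrays alone. In bulk tissue, fewer cells of a type and less RNA per cell cannot be told apart.

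Immediate early genes are transcribed within minutes of a stimulus, without new protein synthesis, through factors such as CREB and SRF that are already bound near their promoters. Most of the 10 genes encode transcription factors. Fos, Fosb and Junb encode subunits of the AP-1 dimer, Egr1 to Egr4 encode zinc finger factors, Nr4a1 encodes an orphan nuclear receptor, and Npas4 encodes a bHLH-PAS factor that responds mainly to calcium influx in neurons. Arc encodes a protein of the postsynaptic site that controls the trafficking of glutamate receptors. In brain these genes are known as markers of recently active neurons, while Fos, Egr1 and their relatives also respond to growth factors in dividing cells of many types.

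All values are log2 signals of 1 probe set per gene, and signals of different genes were not set against each other. Array medians ran from 5.24 to 5.47. The cortices carried the markers of their tissue. The synaptic vesicle fusion gene Snap25 lay at 13.30 to 13.53 and the synaptic calcium sensor Syt1 at 12.73 to 13.20. Some other neuron markers spread more widely over the 5 cortices, such as Neurod6 at 5.63 to 9.97 and Slc17a7 at 7.31 to 9.51. The cortices were therefore not alike in every neuron marker. The mature neuron score of an array, the mean of 17 of 18 listed neuron markers minus their mean in the cortices, ran from -6.36 to -0.31 in the 22 gliomas, and all 17 markers passed as lower in gliomas. The gliomas of arrays 38 and 45 (p53nullCKO) and 58 (p53R172HCKO) had scores of -0.78, -0.76 and -0.31, near the cortices at -0.41 to 0.22, and the other 19 gliomas lay at or below -2.33. Results that rest on these 3 gliomas are given with and without them.

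Promoter windows are shown for 4 of the genes, the 2 that passed as higher in the glioma lines than in cortex (Fos and Egr2) and 2 of those that passed as lower (Egr4 and Npas4), since these genes moved apart in the same comparison. Each window runs from 250 bases before to 50 bases after an annotated start in RefSeq (GRCm38.p6) and is written 5′ to 3′ on the gene's strand. The table held windows for 7 of the 10 genes, and Egr1, Egr3 and Arc had none. Capitals mark the half-site of the cAMP response element (TGACG, on either strand), to which CREB binds, and the CArG box, to which SRF binds. A site of the EGR factors was searched for as well and is in none of the 4 windows shown.
Fos, chr12:85473640-85473939, plus strand: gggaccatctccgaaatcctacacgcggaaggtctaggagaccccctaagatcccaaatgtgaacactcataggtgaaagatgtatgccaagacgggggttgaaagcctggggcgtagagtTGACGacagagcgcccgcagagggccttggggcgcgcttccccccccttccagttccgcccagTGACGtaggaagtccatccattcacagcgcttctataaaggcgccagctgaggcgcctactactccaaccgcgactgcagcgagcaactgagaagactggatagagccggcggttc
Egr2, chr10:67537619-67537918, plus strand: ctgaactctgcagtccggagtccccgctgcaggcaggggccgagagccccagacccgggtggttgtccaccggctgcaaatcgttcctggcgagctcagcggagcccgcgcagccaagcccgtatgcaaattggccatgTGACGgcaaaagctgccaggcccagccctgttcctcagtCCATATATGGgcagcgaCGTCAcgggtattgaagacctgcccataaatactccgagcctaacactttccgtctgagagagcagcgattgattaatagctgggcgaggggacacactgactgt
Egr4, chr6:85513540-85513839, minus strand: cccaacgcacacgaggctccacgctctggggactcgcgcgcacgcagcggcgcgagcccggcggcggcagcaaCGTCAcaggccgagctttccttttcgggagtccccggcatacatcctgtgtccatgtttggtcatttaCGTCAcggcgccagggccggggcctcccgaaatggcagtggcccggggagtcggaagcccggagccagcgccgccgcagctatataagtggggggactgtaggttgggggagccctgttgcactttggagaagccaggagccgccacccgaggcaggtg
Npas4, chr19:4989922-4990221, minus strand: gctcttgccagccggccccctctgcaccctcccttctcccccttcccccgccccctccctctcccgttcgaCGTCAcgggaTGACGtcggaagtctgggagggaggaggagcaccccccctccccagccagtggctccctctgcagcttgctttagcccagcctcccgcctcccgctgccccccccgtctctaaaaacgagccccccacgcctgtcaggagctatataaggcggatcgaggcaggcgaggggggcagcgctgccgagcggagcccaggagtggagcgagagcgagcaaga

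Half-sites of the cAMP response element were present in all 4 windows. In Fos they began 129 and 66 bases before the start, in Egr2 111 and 55 bases, in Egr4 177 and 109 bases, and in Npas4 179 and 169 bases. The half-site was found in at least 1 window of 7 of the 7 genes with a window, against 20.8% of 32851 windows in the table. The first count is per gene and the share is per window. The 7 genes had 11 windows, and not every Egr2 window held a half-site. Among the 7 genes with a window, the CArG box was found in Egr2 alone, 72 bases before the start in the window shown. It was in 1.63% of all windows. Sites more than 250 bases before a start lay outside the windows, so their absence from a window does not show that a gene lacks them. The EGR site (GCGNGGGCG) was found in Fosb and Nr4a1 and in 5.55% of windows. The whole cAMP response element (TGACGTCA, which contains the half-site) and the AP-1 site (TGANTCA) were in no window of the 7 genes. They were in 1.79% and 7.81% of all windows. Both strands were searched, and a match is a match of letters only. The Egr2 window shown is 1 of 5 in the table, which overlap in part.

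In the cortices, all 10 genes varied together from array to array. Egr2 measured 4.11, 7.58, 8.60, 8.43 and 5.61 on arrays 30 to 34, a span of 4.49 log2 units. Arc measured 6.67, 9.38, 9.96, 9.24 and 7.68 on the same arrays, and Npas4 measured 4.81, 6.95, 6.78, 6.31 and 5.83. Arrays 31, 32 and 33 were high and arrays 30 and 34 were low for each of these genes.

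Array 30 was the lowest cortex for 10 of 10 genes, array 34 was the next lowest for 10 of 10, and array 32 was the highest for 9 of 10, with array 31 highest for Npas4. The low arrays were 1 Cre-positive and 1 Cre-negative cortex, so this order did not follow the genotype. The SD of the genes over the 5 cortices lay between the 96.8th percentile (Fos, SD 0.72) and the 99.9th percentile (Egr2, SD 1.94) of all genes. The score of 24 slower activity effectors was also low on arrays 30 and 34 (-0.37 and -0.36, against 0.21 to 0.28 on arrays 31 to 33). The mature neuron score was -0.06 on array 30 and -0.41 on array 34 against 0.11 to 0.22 on the others, and the mature oligodendrocyte score was 0.55 and 0.56 against -0.74 to 0.15. The part of cell content in this spread was not tested. Each comparison with cortex therefore has a wide control group, and array 30 is the cortex whose removal changed calls.

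Against this background, Arc, Egr3 and Egr4 fell in the gliomas, and none of the 10 genes rose. Arc was 6.36-fold lower, Egr3 7.17-fold lower and Egr4 2.69-fold lower than in cortex on average. The share of all genes that passed as lower was 24.7%, and 22.6% passed as higher, so 3 of 10 genes lower is near the background. The median log2 difference of the 10 genes was -1.39, beside -0.03 over all genes.

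Arc, the postsynaptic effector of the set, had a lowest, median and highest signal of 4.63, 5.21 and 9.50 in the p53nullCKO gliomas and of 4.88, 5.57 and 9.05 in the p53R172HCKO gliomas, against 6.67 to 9.96 in cortex. Of the 22 gliomas, 19 lay below every cortex, and the gliomas of arrays 38, 45 and 58 lay among the cortices. The log2 difference was -2.67 (SE 0.62, 95% interval -3.92 to -1.42, adjusted p = 0.000498 from limma). A two-sided exact permutation test of the difference of means, over 80730 arrangements of 22 gliomas and 5 cortices, gave an unadjusted p = 0.00476.

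Egr3, a zinc finger factor that is induced in neurons and lymphocytes, ran from 6.34 to 11.88 (median 7.75) in the p53nullCKO gliomas and from 3.97 to 11.78 (median 8.69) in the p53R172HCKO gliomas, against 9.75, 11.80, 11.90, 11.58 and 10.02 in the cortices. As for Arc, 19 of 22 gliomas lay below every cortex. The log2 difference was -2.84 (SE 0.78, adjusted p = 0.00281 from limma), and the exact permutation test gave p = 0.0032. The other Egr3 probe set stayed between 4.98 and 5.96 on all gliomas and between 5.38 and 5.69 on the cortices, with a log2 difference of -0.05 (adjusted p = 0.745 in the limma fit of single probe sets). With the mean of both probe sets the log2 difference of Egr3 was -1.45 (adjusted p = 0.0034 from limma).

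Egr4, a further zinc finger factor of the family, measured 6.19, 7.50, 8.18, 7.81 and 6.41 in the cortices. In the gliomas it ran from 5.24 to 7.80 (p53nullCKO, median 5.40) and from 4.82 to 8.48 (p53R172HCKO, median 5.70). Here too 19 of 22 gliomas lay below every cortex, and array 58 lay above the highest. The log2 difference was -1.43 (SE 0.40, adjusted p = 0.00315 from limma), and the exact permutation test gave p = 0.00989.

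For Npas4, Fosb and Egr1 the fit gave no call, with wide intervals. Npas4 had a log2 difference of -1.55 (95% interval -3.08 to -0.02, adjusted p = 0.09 from limma), although 19 of 22 gliomas lay below every cortex and the 3 others lay above every cortex. Fosb had -1.68 (interval -3.18 to -0.17, adjusted p = 0.0606 from limma), with 18 gliomas below and 3 above all cortices. Egr1 had -1.34 (interval -2.52 to -0.16, adjusted p = 0.0553 from limma), with 10 gliomas below and 0 above all cortices. The exact permutation p was 0.139 for Npas4, 0.0464 for Fosb and 0.043 for Egr1, each unadjusted. Egr1 passed as lower in limma when the cortex of array 30 was left out (-1.72, adjusted p = 0.0256) and after cyclic loess normalization (-1.70, adjusted p = 0.0185).

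Fos, Junb, Egr2 and Nr4a1 overlapped widely between gliomas and cortex. Fos measured 9.72, 10.48, 11.47, 11.30 and 10.41 in the cortices and had medians of 11.34 in the p53nullCKO and 11.32 in the p53R172HCKO gliomas, with a log2 difference of 0.23 (interval -0.85 to 1.31). The log2 difference of Nr4a1 was -0.05 (interval -1.20 to 1.11), that of Junb -0.39 (interval -1.50 to 0.72) and that of Egr2 0.60 (interval -0.61 to 1.81). Adjusted p ran from 0.427 to 0.956 for these 4 genes in limma. The intervals are wide enough to hold a change of more than 1 log2 unit in at least 1 direction for each gene.

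**Figure D1:**
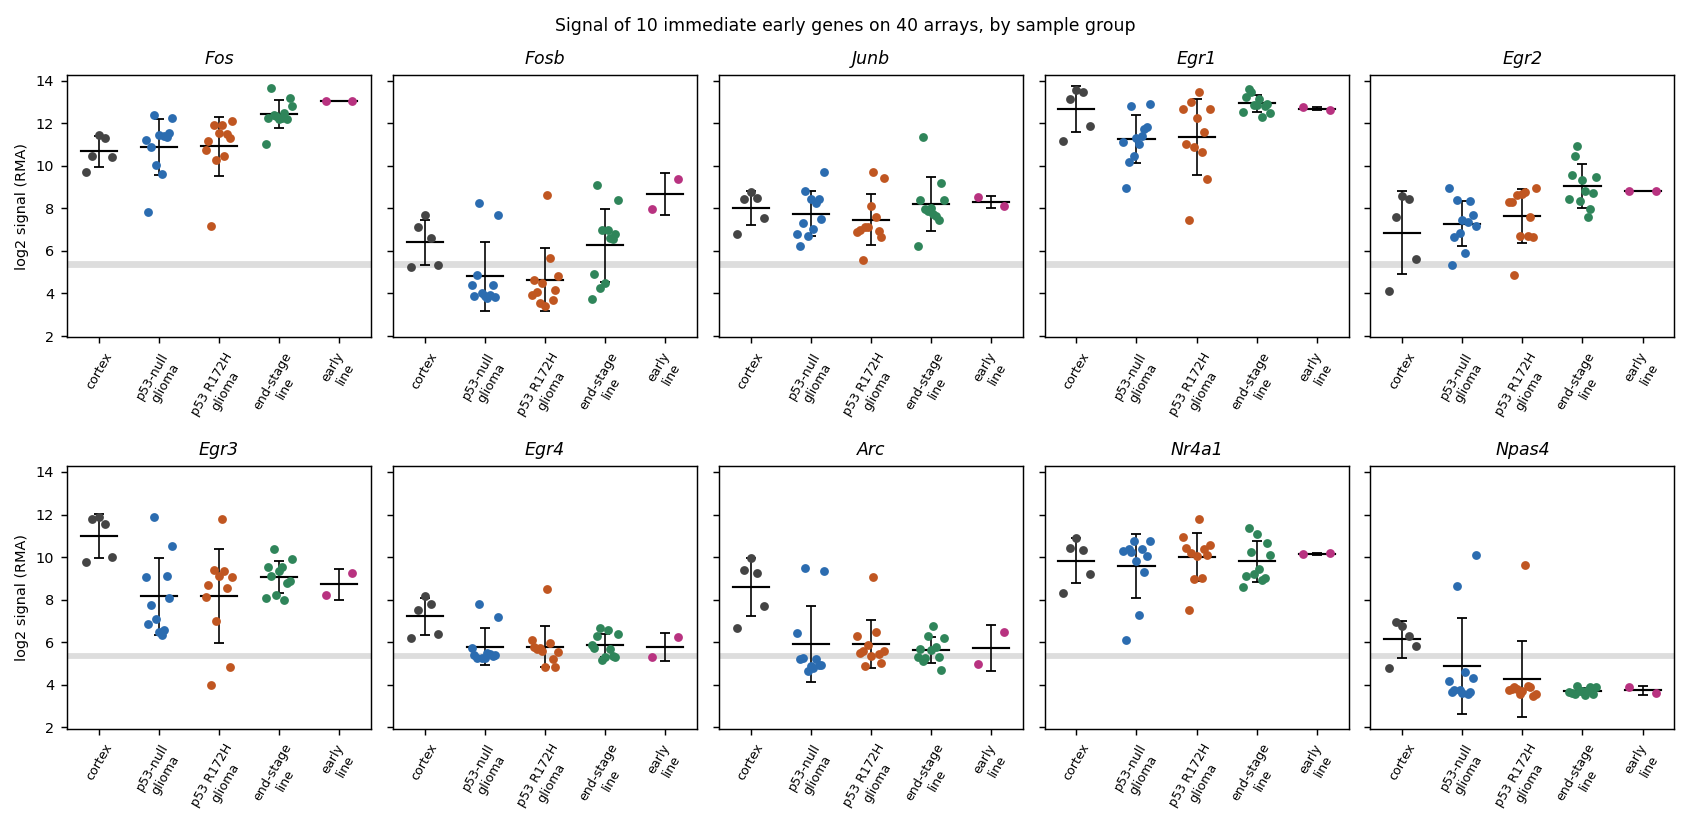
Log2 RMA signal of the 10 genes on 40 arrays, with 1 point per array, the group mean as a horizontal line and the SD as a bar, and the range of array medians as a grey band. For Arc, Egr3, Egr4 and Npas4, 19 of 22 gliomas sit below every cortex, and for Npas4 the 3 others sit above every cortex.

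The gliomas with the most neuron marker signal had the highest Npas4 signal of the whole data set. Npas4 measured 8.62 on array 38, 10.11 on array 45 and 9.63 on array 58, against at most 6.95 in a cortex and at most 4.62 in the 19 other gliomas. These 3 values were 3.19-fold, 8.96-fold and 6.41-fold above the highest cortex. The 19 other gliomas ran from 3.49 to 4.62 with a median of 3.77, below the median of each array.

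Fosb and Arc set the same 3 gliomas apart. Fosb measured 8.24, 7.70 and 8.65 on arrays 38, 45 and 58, at or above the highest cortex (7.68), and at most 5.67 in the other gliomas. Arc measured 9.50, 9.33 and 9.05, below the highest cortex (9.96), and at most 6.49 in the other gliomas. Egr3 and Egr4 also had their 3 highest glioma values there. Fos, Junb and Egr1 were high there too. On arrays 38, 45 and 58 Fos ranked 1, 2 and 4 among the gliomas, Junb 4, 2 and 1, and Egr1 4, 3 and 1. Fos and Junb lay above the highest cortex on all 3 arrays, and Egr1 lay below it. Egr2 and Nr4a1 were not high on all 3, since Egr2 on array 45 ranked the 14th of 22 and Nr4a1 on array 38 the 11th of 22. The same 3 gliomas had microglia and macrophage scores of 1.36, 1.70 and 0.36 and, for arrays 45 and 58, the lowest cell cycle score of their genotype (1.76 and 1.59). The part of normal neurons in these values was not tested.

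Across the 22 gliomas, 4 of the 10 genes passed with a slope above 0 on the mature neuron score, beside 11.5% of all genes. The fit had the genotype as a term. The slopes, in log2 units of signal per log2 unit of score, were 0.82 for Npas4 (SE 0.15, adjusted p = 0.000563), 0.67 for Fosb (SE 0.10, adjusted p = 8.16e-05), 0.66 for Arc (SE 0.09, adjusted p = 4.37e-05) and 0.40 for Egr4 (SE 0.06, adjusted p = 0.000149), all from limma. Egr3 had a slope of 0.54 (adjusted p = 0.0621). The slopes of Fos (-0.03), Egr1 (0.08), Egr2 (-0.01), Nr4a1 (-0.03) and Junb (0.21) did not pass, with adjusted p from 0.266 to 0.965.

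These slopes rest on the 3 gliomas. Without arrays 38, 45 and 58 none of the 10 genes passed, and the slopes were 0.04 for Npas4 (adjusted p = 0.694), 0.21 for Fosb (adjusted p = 0.198), 0.23 for Arc (adjusted p = 0.103) and 0.12 for Egr4 (adjusted p = 0.228) in limma. The relation was also not a straight line. In bands of the score, 5 gliomas with scores of -3.02 to -2.33 had Npas4 at 3.64 to 4.17, and the 14 gliomas below them had 3.49 to 4.62. Arc in these bands ran from 5.21 to 6.49 and from 4.63 to 6.30. No gene had a slope that passed on the microglia and macrophage score (adjusted p 0.828 to 0.994), where 0.879% of all genes passed with a slope above 0.

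**Figure D2:**
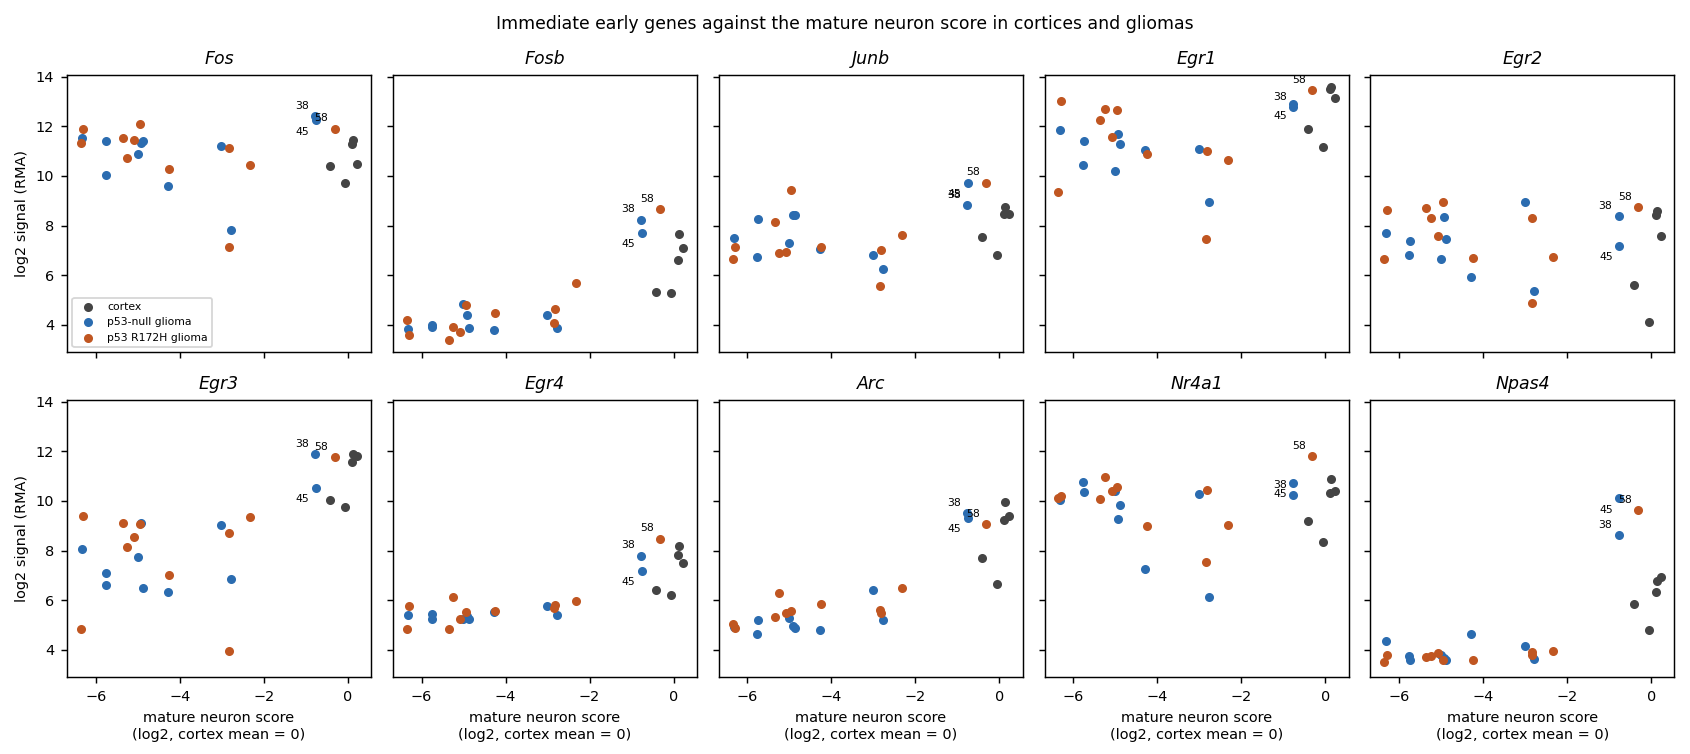
Log2 RMA signal of each gene (vertical) against the mature neuron score (horizontal, log2 units, cortex mean at 0) for 5 cortices and 22 gliomas, with 1 point per array and the gliomas of arrays 38, 45 and 58 numbered. Npas4 is at or below 4.62 in every glioma with a score of -2.33 or lower and at 8.62 to 10.11 in the 3 numbered ones. Slopes of Fos and Nr4a1 on the score over the 22 gliomas did not pass.

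Without these 3 gliomas, 6 of the 10 genes passed as lower than in cortex, beside 26.3% of all genes in the same fit. Npas4 then had a log2 difference of -2.32 (adjusted p = 1.55e-12), Fosb -2.23 (adjusted p = 0.000848) and Egr1 -1.63 (adjusted p = 0.0122) in limma, beside Arc, Egr3 and Egr4. The p-value of Npas4 rests on a spread pooled over the groups, and the gliomas and lines left in the fit lay below the array median. The SD of Npas4 was 0.86 in the cortices and 0.14 in the end-stage lines, so this p-value understates the spread of the cortices. The 3 gliomas were set aside by neuron markers, after their values had been seen. Under array quality weights, which give less weight to arrays that depart from their group, 6 of the 10 genes passed as lower, beside 33.5% of all genes. The weights of arrays 38, 45 and 58 were 0.38, 0.40 and 0.25, and those of the cortices ran from 1.43 to 3.87. This setting therefore overlaps with leaving out the 3 gliomas and is not a separate check.

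A second pair of gliomas, arrays 36 and 50, had the lowest signals of their genotype for several of the other genes. On array 36 (p53nullCKO) Fos measured 7.81 and Nr4a1 6.11, and on array 50 (p53R172HCKO) Fos measured 7.15 and Egr1 7.44. Array 36 was the lowest of its genotype for 5 of the 10 genes and array 50 for 6 of the 10. Fos in the 20 other gliomas ran upward from 9.61. Their neuron scores were -2.78 and -2.84. Each had the lowest oligodendrocyte progenitor score of its genotype, -0.83 on array 36 against a median of 2.77 and -2.31 on array 50 against a median of 3.06. Array 50 also had the lowest scores of all gliomas for astrocytes (-3.26), mature oligodendrocytes (-5.40) and microglia and macrophages (-0.04). The part of these cells in the low values was not tested. Low values were not confined to this pair. Array 41 (p53nullCKO) was among the 2 lowest of its genotype for 6 of the 10 genes, with Nr4a1 at 7.26. Array 64 (p53R172HCKO) was so for 7 of the 10, with Egr3 at 4.82. Some checks below leave out array 41 together with arrays 36 and 50.

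Other genes of the activity response moved in both directions. Of 24 listed effectors of neuronal activity, 12 fell and 3 rose in gliomas against cortex, with a median log2 difference of -1.41. Those with the largest changes were Rasgrp1, a Ras exchange factor (-4.94, adjusted p = 1.07e-05), Scg2, a secretory granule protein (-3.60, adjusted p = 0.00214), and Nrn1, a neurite-growth protein (-3.43, adjusted p = 0.0191), from limma.

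Of 29 measured other immediate early genes, 13 rose and 5 fell, with a median log2 difference of 0.78. Cebpd, a bZIP factor of inflammatory and growth signalling, rose by 2.72 (adjusted p = 0.000169), and Maff, a small Maf factor, rose by 2.56 (adjusted p = 0.000243). Nr4a3, a nuclear receptor of the same family as Nr4a1, fell by 2.45 on the log2 scale (adjusted p = 5.74e-05), all from limma. Microglia and macrophage markers moved with this comparison, with 8 of 13 higher and 1 lower and scores from -0.04 to 2.38 in gliomas against -0.37 to 0.27 in cortex, and their part in the rise of these genes was not tested.

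Upstream of the 10 genes, 9 of 13 measured signalling genes fell and 2 rose. Camk2a, the calcium/calmodulin kinase of excitatory synapses, fell by 5.69 on the log2 scale (adjusted p = 6.06e-06), Camk4, a nuclear CREB kinase, fell by 4.14 (adjusted p = 1.65e-05), and the NMDA receptor subunit Grin2b fell by 3.99 (adjusted p = 4.15e-07), from limma. Of 17 measured transcription factors and cofactors, 8 fell and 4 rose. Mef2c fell by 2.94 (adjusted p = 0.000235), the SRF cofactor Mrtfb fell by 2.21 (adjusted p = 4.92e-07), and the SRF partner Elk3 rose by 2.09 (adjusted p = 6.47e-06). The neuron markers fell in the same arrays, and the part of neuron content in these changes was not tested.

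The 2 glioma genotypes were compared because the study asked what the R172H allele adds to loss of p53. None of the 10 genes passed (adjusted p 0.796 to 0.999 in limma, and none at an unadjusted p under 0.05), where 0.033% of all genes passed. Medians of Arc were 5.21 and 5.57, of Fos 11.34 and 11.32, and of Npas4 3.77 and 3.79 in p53nullCKO and p53R172HCKO gliomas. The 95% intervals of the log2 difference reached from -0.92 to 0.95 for Fos, from -1.08 to 1.08 for Arc, from -1.35 to 1.38 for Egr3 and from -1.94 to 0.70 for Npas4, so differences of about 1 log2 unit were within them.

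Each genotype taken alone against cortex gave the same 3 genes, Arc, Egr3 and Egr4, as lower and none as higher. Their log2 differences were -2.67, -2.85 and -1.44 in p53nullCKO gliomas (adjusted p 0.00145 to 0.00687) and -2.67, -2.84 and -1.42 in p53R172HCKO gliomas (adjusted p 0.00134 to 0.0072) in limma. The share of all genes that passed was 20.5% higher and 22.2% lower in p53nullCKO gliomas and 21.5% higher and 24.3% lower in p53R172HCKO gliomas. Both comparisons share the 5 cortices. Without the cortex of array 30, Egr1 also passed as lower in p53nullCKO gliomas (-1.78, adjusted p = 0.0344), and Egr1 (-1.66, adjusted p = 0.0464) and Npas4 (-2.19, adjusted p = 0.0459) did so in p53R172HCKO gliomas in limma.

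In the glioma lines, Fos and Egr1 rose against the p53R172HCKO gliomas, and none of the 10 genes fell. The share of all genes that passed as higher was 7.24%, and 6.43% passed as lower. The median log2 difference of the 10 genes was 0.81, beside 0.05 over all genes.

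Fos ran from 11.03 to 13.65 in the 11 lines (median 12.36), from 7.15 to 12.12 in the p53R172HCKO gliomas (median 11.32) and from 9.72 to 11.47 in cortex. Of 11 lines, 10 lay above every p53R172HCKO glioma and 10 above every cortex, and array 47 was the exception in both. Fos was 2.88-fold higher in the lines than in the p53R172HCKO gliomas, a log2 difference of 1.53 (SE 0.46, interval 0.59 to 2.46, adjusted p = 0.022 from limma).

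Egr1 ran from 12.30 to 13.61 in the lines (median 12.88) and from 7.44 to 13.47 in the p53R172HCKO gliomas (median 11.58). The lines lay close together at the upper end of the gliomas, with 1 of 11 above all of them. The log2 difference was 1.56 (SE 0.50, interval 0.55 to 2.58, adjusted p = 0.0316 from limma). With only these 2 groups in the fit the adjusted p was 0.0598, and with the methods' t-test after Benjamini-Hochberg adjustment it was 0.0755.

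Egr2 and Fosb had differences of similar size that did not pass. Egr2, a factor of Schwann cell and hindbrain development, had a log2 difference of 1.41 (interval 0.37 to 2.45, adjusted p = 0.0608 from limma), and 5 of 11 lines lay above every p53R172HCKO glioma. Fosb had 1.62 (interval 0.33 to 2.91, adjusted p = 0.0863 from limma), and without the gliomas of arrays 38, 45 and 58 it passed, with 2.02 (adjusted p = 0.00346). Fosb separated the lines among themselves, from 3.74 on array 47 to 9.10 on array 51, and 4 lines lay below 5 while 7 lay at 6.54 or above. The differences of the other 6 genes ran from -0.56 (Npas4) to 0.89 (Egr3).

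Microglia and macrophage markers and endothelial markers were also lower in culture. All 13 microglia and macrophage markers fell, with scores of -3.78 to -3.07 in the lines against -0.04 to 2.35 in the p53R172HCKO gliomas, and all 9 measured endothelial and pericyte markers fell. Of the 17 neuron markers, 5 fell. The part of these cells in the differences was not tested.

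Against cortex, the lines had Fos and Egr2 higher and Arc, Egr4 and Npas4 lower, where 25.5% of all genes passed as higher and 24.3% as lower. Egr2 ran from 7.58 to 10.94 in the lines (median 8.80), and its log2 difference was 2.20 (SE 0.65, adjusted p = 0.00466 from limma). Without the cortex of array 30, the lowest for this gene, the difference was 1.51 and did not pass (adjusted p = 0.0537). Fos was 3.39-fold higher (log2 difference 1.76, adjusted p = 0.011 from limma), and after cyclic loess normalization the difference was 1.36 (adjusted p = 0.0548).

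Npas4 ran from 3.51 to 3.93 in the lines, with an SD of 0.14, and all 11 lines lay below every cortex. Its log2 difference from cortex was -2.42 (SE 0.82, adjusted p = 0.0137 from limma). With the Cre-positive cortices alone the adjusted p was 0.0516. Over all settings with adjustment that was the highest, and the lowest was 2.86e-07. The SE rests on a spread pooled over the groups, and the SD of Npas4 was 2.26 in p53nullCKO and 1.78 in p53R172HCKO gliomas. Npas4 lay below the array median on all 11 lines, where little of a signal may be the gene's own, so the difference may understate the fall. Arc fell by 2.95 on the log2 scale (adjusted p = 0.000352), with 10 of 11 lines below every cortex, and Egr4 fell by 1.37 (adjusted p = 0.0083), with 7 of 11 below. Egr3 had -1.94 (interval -3.67 to -0.22, adjusted p = 0.0558 from limma), and without the cortex of array 30 it passed, with -2.26 (adjusted p = 0.0431). It also passed in limma with only lines and cortices in the fit (adjusted p = 0.00105) and after cyclic loess (-2.27, adjusted p = 0.0289). With the methods' t-test after Benjamini-Hochberg adjustment the adjusted p of Egr3 was 0.00249. Over all settings with adjustment it ran from 0.000509 to 0.131.

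Against the p53nullCKO gliomas, from which no line was derived, Fos (log2 difference 1.54, adjusted p = 0.0142), Egr1 (1.69, adjusted p = 0.0137) and Egr2 (1.78, adjusted p = 0.011) passed as higher in the lines in limma and no gene of the 10 passed as lower. Of all genes, 12% passed as higher and 9.9% as lower. This comparison shares the lines with the preceding ones and differs in p53 genotype as well as in culture.

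**Figure D3:**
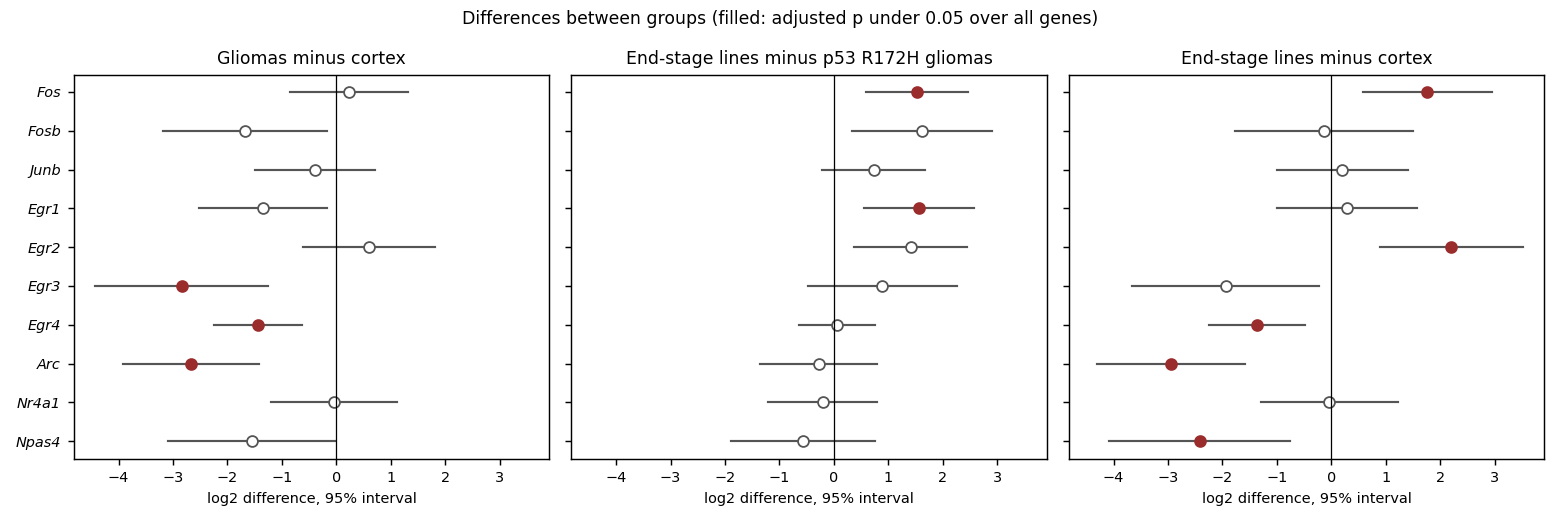
Log2 differences of the 10 genes with 95% intervals for gliomas minus cortex, end-stage lines minus p53R172HCKO gliomas and end-stage lines minus cortex, with filled points where the adjusted p over all genes was under 0.05. Arc, Egr3 and Egr4 are filled below 0 in the gliomas (-2.67, -2.84 and -1.43), and Fos and Egr1 are filled above 0 in the lines against gliomas (1.53 and 1.56).

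Lines of early biopsies did not differ from end-stage lines in any of the 10 genes at an adjusted p under 0.05, and 0% of all genes passed in limma, where 515 genes had an unadjusted p under 0.05. Fos measured 13.06 and 13.04 on arrays 66 and 69, Egr1 12.75 and 12.63, and Egr2 8.80 and 8.81. Fosb measured 7.97 and 9.36 and had the only unadjusted p under 0.05 (log2 difference 2.41, interval 0.08 to 4.74, adjusted p = 1 from limma). With 2 early lines the intervals are wide, from -1.07 to 2.29 for Fos.

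The order of the 4 larger groups differed by gene. For Arc and Egr4, cortex stood above the other 3 groups, which did not differ from each other at an adjusted p under 0.05. For Fos the lines stood above the other 3 groups, which did not differ in limma. For Nr4a1 and Junb no neighbouring groups differed, with means of 10.01, 9.84, 9.80 and 9.57 for Nr4a1 in p53R172HCKO gliomas, cortex, lines and p53nullCKO gliomas. A call not made does not show that these levels were the same.

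Among the 19 gliomas other than arrays 38, 45 and 58, 6 of the 10 genes varied together across arrays, after removal of the genotype means. These 6 genes were grouped after the correlations were seen. Within Fos, Junb, Egr1, Egr2, Nr4a1 and Egr3, the 15 pairs had Pearson's r from 0.42 to 0.85 (median 0.72), and the 24 pairs of these genes with the other 4 had r from -0.29 to 0.26. Fosb, Egr4, Arc and Npas4 formed no set of their own, since their 6 pairs had r from -0.06 (Fosb with Npas4) to 0.60, and Npas4 lay below the array median in all 19 gliomas. The points share normalization and tumor content.

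The correlation of the 6 genes was weaker without the gliomas of arrays 36, 41 and 50 as well. Over the 16 gliomas that remained, their 15 pairs had r from -0.19 to 0.76 (median 0.35), the 6 pairs of the other genes had a median of 0.39, and the 24 pairs between them reached 0.54.

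In the 11 lines, the 15 pairs of the same 6 genes had r from 0.27 to 0.92 (median 0.57). The 6 pairs of Fosb, Egr4, Arc and Npas4 had r from -0.09 to 0.24 (median 0.11), and the 24 pairs between had r from -0.34 to 0.77. Fos and Junb, partners in AP-1, had the highest r, 0.92, and Fosb, which was at its highest with them on array 51, had r up to 0.77 with genes of this group. Array 51 was the highest line for 5 of the 10 genes and array 53 for 4, and array 47 was the lowest for 4. With all 22 gliomas, which fall into clusters for some genes, the pairs of Fosb, Egr4, Arc and Npas4 are set by arrays 38, 45 and 58.

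**Figure D4:**
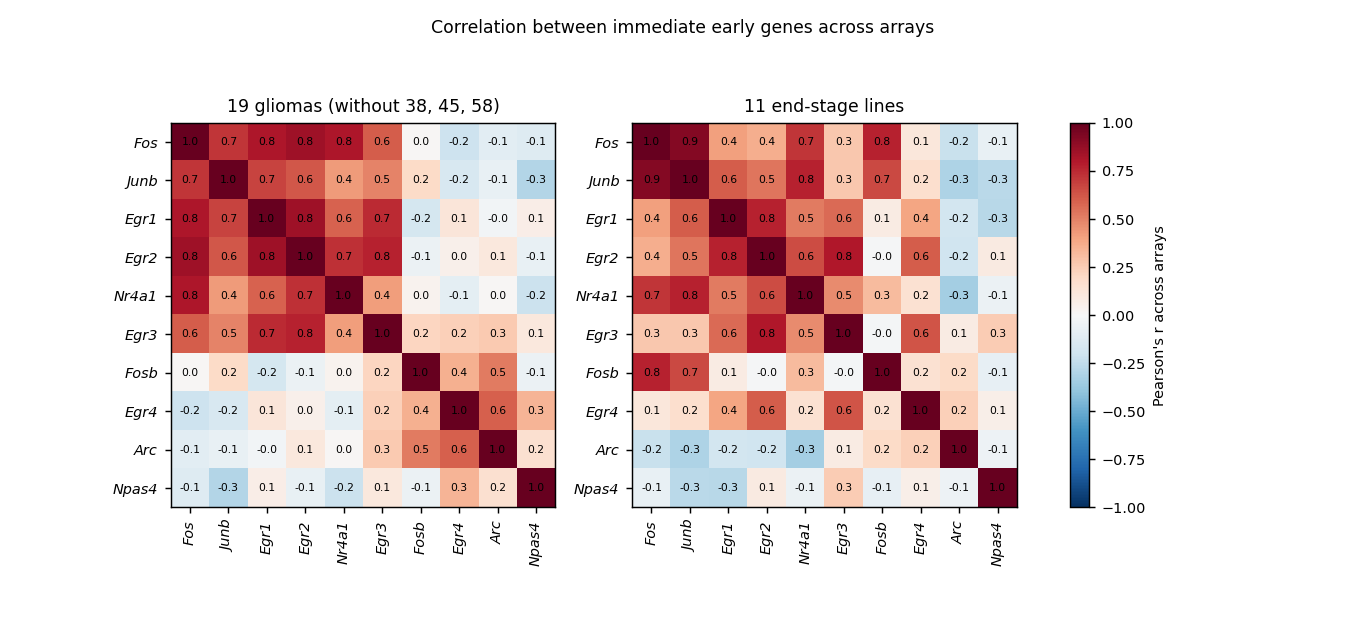
Pearson's r between the 10 genes across 19 gliomas (genotype means removed, arrays 38, 45 and 58 left out) and across 11 end-stage lines, on a colour scale from -1 to 1. Pairs of Fos, Junb, Egr1, Egr2, Nr4a1 and Egr3 lie between 0.42 and 0.85 in the gliomas, and pairs of these genes with Fosb, Egr4, Arc or Npas4 lie between -0.29 and 0.26.

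Over the 22 gliomas, the 5 genes with the most similar pattern were found for each of the 10 genes by Pearson's r. For Fosb these were Camk2a (r = 0.97), Rasl10a, Gm34996, Rasgef1a and Necab1, and for Arc Syt5 (r = 0.97), Necab1, Map3k9, Psd and Ptger3. For Egr4 they were Cdkl4 (r = 0.96), Iqsec2, Epb41l1, Cnnm1 and Sprn, and for Npas4 Gm34996 (r = 0.96), C230034O21Rik, Cnnm1, Madd and Wipf2. Without arrays 38, 45 and 58, r was 0.83 for Fosb with Camk2a, 0.76 for Arc with Syt5 and -0.08 for Npas4 with Gm34996.

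For the other 6 genes, r with the most similar gene was 0.81 or more without the 3 gliomas. Fos was most like Adgrb2 (r = 0.94 over 22 gliomas and 0.94 over 19), then Vstm2b, Slc41a2, Ncald and Prkg2. Egr1 was most like Gm13889 (r = 0.89 and 0.85), then Vstm2b, B3gat1, Nab2, which encodes a corepressor of EGR factors, and Car11. Egr2 was most like Neto1 (r = 0.85 and 0.84), then Cspg5, Slc41a2, Vstm2b and Fos. Nr4a1 was most like Anks1b (r = 0.90 and 0.90), then Dab1, Dmd, Grik3 and Pcdh10, Junb was most like Sh2d5 (r = 0.89 and 0.85), then Bhlhe40, Clu, Ak5 and Arhgef4, and Egr3 was most like Ak5 (r = 0.90 and 0.81), then Dnm1, Cracdl, Map2k1 and Adcy5. Genes are ranked over 18193 candidates, and the ranks are a description with no test.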

How the data were processed

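The 40 samples were hybridized to Affymetrix Mouse430_2 arrays. Per the labels and methods, the authors corrected the background, normalized the arrays by quantiles and summarized probe sets by RMA, and the deposited values were read as log2 signals, since the log base is not stated. Of 45101 probe sets, 64 control probe sets, 932 with several gene symbols and 9160 not listed in the annotation were left out, and the brightest probe set represented each of 18193 genes. A linear model with 5 groups was fitted to all genes in limma 3.58.1 (R 4.3.3), with a threshold of 0.05 on p-values adjusted over all genes by the Benjamini-Hochberg method. Slopes on marker scores were fitted in limma over 22 gliomas with genotype as a term. Exact permutation tests, correlations and motif searches used Python 3.11.15.

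The 10 genes and all gene lists were chosen with earlier results of these data known. Genes named in the text were the 10 genes, the 3 genes with the largest passed change in each of 4 context lists, and the 5 genes most like each of the 10. Some neuron markers with high signal or a wide spread in the cortices were also named. The score of a list is the mean of its genes minus their mean in the cortices. The model was tested on simulated data with known changes before use. The simulated noise was normal, with the same SD in all groups for a given gene. It therefore does not cover genes such as Npas4, with an SD of 0.14 in end-stage lines, 0.86 in cortex and 2.26 in p53nullCKO gliomas. Quantile normalization would hide a shift shared by most genes. The precision is limited by the number of arrays. Alternatives were other summaries of probe sets, a filter on dim genes (which kept all 10), fewer groups, cyclic loess, array weights, moderation with trend and robust, a stricter threshold, the methods' t-test and single arrays left out.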

Additional observations from a re-analysis of the deposited data

How the results depend on the processing

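For gliomas against cortex, 3 of the 10 genes were lower. With a filter on dim genes 5 were lower (28.4% of all genes in that fit), and with array quality weights 6 (33.5%), as also for p53nullCKO (6, beside 29.7%) and p53R172HCKO gliomas (6, beside 31.7%) taken alone. Leaving out the gliomas of arrays 38, 45 and 58, a choice made after seeing the data, gave 6 lower in each of these comparisons. The shares of all genes were 26.3%, 23.8% and 25.6%. The array weights of these gliomas were 0.38, 0.40 and 0.25, so the weighted fits are not a separate check. For p53R172HCKO gliomas against cortex, the methods' t-test at an unadjusted p under 0.05 gave 5 (27.3%), and leaving out single cortices gave 3 to 5, with 5 (22.4%) without array 30, when Egr1 and Npas4 passed. For lines against p53R172HCKO gliomas, 2 genes were higher, with 1 when only these groups were fitted (5.19%), 0 at an adjusted p under 0.01 (2.84%), 4 in the methods' t-test without adjustment (14.7%) and 1 with Benjamini-Hochberg adjustment (5.11%). For lines against cortex, 2 were higher, with 1 after cyclic loess (23.4%), 1 at an adjusted p under 0.01 (20.1%) and 1 to 2 without single cortices, with 1 (23.6%) without array 30, when Egr2 did not pass. For lines against p53nullCKO gliomas, 3 were higher, with 0 at an adjusted p under 0.01 (5.69%) and 5 without arrays 38, 45 and 58 (9.06%). Of the slopes on the neuron score, 4 passed, with 2 within p53R172HCKO gliomas alone (3.11%) and 0 without arrays 38, 45 and 58 (2.04%). The cause of these moves was not tested.

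Over all alternatives, values of genes that had passed stayed past the threshold in 326 cases and missed it in 19, and none changed direction. Values that had not passed stayed short of it in 906 cases, came past it in 49 and changed direction without passing in 80. Leaving out the gliomas of arrays 36, 41 and 50, also chosen after seeing the data, brought Egr3 (slope 0.68, adjusted p = 0.00158) and Junb (slope 0.29, adjusted p = 0.0473, both from limma) past the threshold for the neuron score. No paired analysis was possible because the labels number the arrays only and do not say which line came from which p53R172HCKO tumor, although the methods pair each tumor with a line. Cyclic loess moved the median of all genes by at most 0.05 in any comparison. The 5 cortices and the 2 early lines limit the precision.

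Over all genes, the 6 that passed between genotypes became 3 after cyclic loess, 14 with array weights, 1619 in the methods' t-test without adjustment, and 0 with single probe sets, with only these groups, at an adjusted p under 0.01, in the adjusted t-test and without arrays 38, 45 and 58. Early against end-stage lines gave 0, 1 with array weights and 612 in the unadjusted t-test. With each of the more numerous probe sets tested, 8592 became 16330 (gliomas against cortex), 7764 became 14539 (p53nullCKO), 8339 became 15834 (p53R172HCKO), 9063 became 17318 (lines against cortex), 2487 became 4185 (lines against p53R172HCKO gliomas) and 3986 became 6857 (lines against p53nullCKO gliomas). The last 2 counts were 1156 and 2122 at an adjusted p under 0.01 and 4676 and 6223 in the unadjusted t-test. Slopes on the neuron score passed for 3515 genes, 1453 within p53nullCKO, 649 within p53R172HCKO, 1255 without the 2 farthest gliomas and 496 without arrays 38, 45 and 58. Slopes on the microglia and macrophage score passed for 161, 3, 44 and 96 genes in the first 4 of these settings.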
